A study of Homo sapiens with 6 samples.

Results

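In LX-2 cells given FEBJ (an extract made from the fruit of Brucea javanica) for 24 h, 65 of the 62754 gene rows held at least 15 counts in each of 2 libraries while both DMSO libraries held 0. The rows were chosen by these measured counts: 41990 rows stood at 0 in both DMSO libraries, 6992 reached 15 counts in each FEBJ library, and 65 of those that met both conditions remained after symbols starting with ZNF, SLC, RPL or RPS were left out. The symbol filter removed SLC12A1, ZNF300 and RPL39P. Because the counts in DMSO and after FEBJ chose the rows, the rise itself is a description here and was not tested. Most of the rows were weakly counted, 45 of them with fewer than 30 counts in the smaller FEBJ library, and 3 rows (PDE11A, LINC01721 and FAM153CP) held 35.1% of all their FEBJ counts.

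LX-2 is an established human line of hepatic stellate cells, labelled wild type. The cells were kept for 24 h with FEBJ, with the flavone glucoside cynaroside or, as the control, with DMSO, and each of the 3 groups held 2 RNA-seq libraries. No doses were given, and since nothing says that paired libraries are separate cultures, p-values measure only the spread between these libraries, which may be technical. The study compared the response to a plant extract with that to a single compound.

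Hepatic stellate cells store vitamin A in the healthy liver and, once activated, lay down the collagen of a fibrotic scar. A gene row sums the reads on the exons of one annotated gene, and many of the rows here are not protein-coding genes: long non-coding RNAs make no protein, and pseudogenes are copies of genes that mostly lost the ability to do so. Where exons of 2 genes lie on opposite strands of the same DNA, a count in one row can be told from a count in the other only through the strand of the read.

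Gene rows held 1599000 to 4709317 counts per library, 5.48 to 6.12% of all counts in the tables. The strand setting of the counting step is not given in the sources used here, so counts of overlapping rows cannot be told apart. Of 12 stellate and fibroblast markers, VIM held 1075 and 1455 counts and COL1A1 783 and 1276 counts in DMSO, whereas COL1A2, LUM and DCN were at 0 in all 6 libraries. After FEBJ, edgeR (quasi-likelihood, Benjamini-Hochberg adjustment) placed 8 of the 9 tested markers lower and 0 higher, where 24.8% of all tested rows were lower, and the summed CPM of the list was 99.5 and 87.6 against 1024 and 1042 in DMSO. CPM are counts over the scaled library size, multiplied by 1e+06.

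None of the 65 rows belonged to the lists of markers of other cell types. These lists hold 10 or 12 genes each and 65 of all 62754 rows met the rule, so nothing is read from this absence. The hepatocyte list summed to 0.707 and 0.486 CPM in DMSO and 13.5 and 13.3 CPM after FEBJ, mostly in SERPINA1, while ALB, TTR, FGA, FGB, HP and AHSG were at 0 in all 6 libraries. The gut epithelium list summed to 277.1 and 322.8 CPM in DMSO and 1036 and 1005 CPM after FEBJ, mostly in VIL1, with FABP2, APOA4, TFF3, GUCA2A and CEACAM5 at 0 throughout. The T and NK cell list summed to 35.0 and 37.7 CPM in DMSO and 67.6 and 79.7 CPM after FEBJ, mostly in CD247, with CD3D, CD3G, CD2, LCK and GZMB at 0 throughout, while IL7R of the same list fell from 39 and 47 counts to 0 and 6. Sums were also higher after FEBJ for the keratinocyte, myeloid, neuron, germ cell and endothelial lists. The germ cell list summed to 48.4 and 55.2 CPM in DMSO and 86.7 and 91.3 CPM after FEBJ. The neuron list summed to 11.7 and 10.9 CPM in DMSO and 30.6 and 26.4 CPM after FEBJ. Lower sums after FEBJ were found for the B cell, muscle and bile duct lists. The bile duct list, mostly in KRT8, summed to 1640 and 1652 CPM in DMSO and 1549 and 1541 CPM after FEBJ. The B cell list, mostly in BLK, summed to 10.3 and 9.97 CPM in DMSO and 1.99 and 1.99 CPM after FEBJ. The muscle list, mostly in TTN, summed to 243.5 and 247.7 CPM in DMSO and 103.4 and 112.6 CPM after FEBJ. ACTN2 of the muscle list went the other way, from 2 and 0 counts in DMSO to 14 and 16 after FEBJ. All libraries are labelled as the LX-2 line, so these sums describe marker rows and not numbers of cells of other types. Whether any other cells were present was not tested.

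Of the 65 rows, 24 were protein-coding in GENCODE release 29, 19 were long non-coding RNAs, 13 were pseudogenes and 2 were of other types, and the remaining 7 were not in that release. Among the 58 rows it annotates, 27 had exons overlapping exons of a gene on the opposite strand by at least 50 bp, 1 did so by less, 4 overlapped the span of an opposite gene but none of its exons, and 26 lay opposite no gene. The share with opposite exons, 46.6%, lay between that of all annotated rows, 19.8%, and that of annotated rows with at least 15 counts in each FEBJ library, 72.5%. Pseudogenes made up 20% of the 65 rows, 24.2% of all rows and 3.08% of the rows with at least 15 counts in each FEBJ library. Protein-coding genes made up 36.9%, 31.6% and 61.1% of the same sets. The median exon length was 1906 bp, against 985 bp over all annotated rows and 3637 bp over those with at least 15 counts in each FEBJ library. A single exon block was found in 20.7%, 39.1% and 9.53%. In their shares of pseudogenes and protein-coding genes the 65 rows were thus nearer to the whole table than to the rows counted after FEBJ. Long non-coding RNAs went the other way. They made up 29.23% of the 65 rows and 23.44% of all rows. Among the rows with at least 15 counts in each FEBJ library they made up 29.98%. These shares describe the rows and carry no test.

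Promoter windows were taken from RefSeq (GRCh38.p14), which held one for 26 of the 65 rows. They are shown for the 3 protein-coding rows with the highest counts that have a window and for the 2 histone genes. Each line gives the 250 bases before the gene's start in RefSeq, 5′ to 3′ along the strand of the gene. For PDE11A, DENND2C, H1-3 and H2AC21 that start is not the one of the counted row in GENCODE release 29. All 5 genes lie on the minus strand. Capitals mark the TATA box by its letters TATAAA, the CCAAT box, and the GC box by its letters GGGCGG, on either strand. Where the CCAAT box lies on the other strand it appears in the lines as ATTGG. The windows lie at chr2:178108340-178108589 (PDE11A), chr3:42773254-42773503 (CCDC13), chr1:114670050-114670299 (DENND2C), chr6:26234988-26235237 (H1-3) and chr1:149887966-149888215 (H2AC21).
PDE11A: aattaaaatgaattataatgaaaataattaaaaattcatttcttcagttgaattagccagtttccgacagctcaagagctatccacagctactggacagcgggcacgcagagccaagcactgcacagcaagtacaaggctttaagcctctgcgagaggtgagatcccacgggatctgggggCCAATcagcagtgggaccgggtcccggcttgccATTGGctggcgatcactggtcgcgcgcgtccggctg
CCDC13: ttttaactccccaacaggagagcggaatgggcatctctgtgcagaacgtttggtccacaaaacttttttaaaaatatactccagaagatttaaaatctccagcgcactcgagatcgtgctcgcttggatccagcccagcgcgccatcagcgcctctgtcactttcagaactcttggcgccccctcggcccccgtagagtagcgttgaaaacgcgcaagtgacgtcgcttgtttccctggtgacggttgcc
DENND2C: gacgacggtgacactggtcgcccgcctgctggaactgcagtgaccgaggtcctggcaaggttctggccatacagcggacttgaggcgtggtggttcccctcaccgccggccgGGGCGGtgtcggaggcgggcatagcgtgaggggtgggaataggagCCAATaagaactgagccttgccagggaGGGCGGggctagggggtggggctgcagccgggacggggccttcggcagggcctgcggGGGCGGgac
H1-3: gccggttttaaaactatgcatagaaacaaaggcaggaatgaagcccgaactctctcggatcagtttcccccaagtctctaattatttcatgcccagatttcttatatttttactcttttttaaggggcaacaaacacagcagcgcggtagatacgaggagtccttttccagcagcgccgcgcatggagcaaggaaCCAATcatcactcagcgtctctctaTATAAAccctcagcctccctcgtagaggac
H2AC21: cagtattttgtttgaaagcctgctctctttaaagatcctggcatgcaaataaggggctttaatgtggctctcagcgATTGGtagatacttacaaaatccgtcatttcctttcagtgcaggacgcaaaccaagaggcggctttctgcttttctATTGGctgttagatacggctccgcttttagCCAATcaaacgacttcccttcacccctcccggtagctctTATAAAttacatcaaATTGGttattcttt

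In the window of PDE11A both capital runs are CCAAT boxes, the window of DENND2C holds 1 CCAAT box and 3 GC boxes, and that of CCDC13 holds none of the 3 motifs. The windows of H1-3 and H2AC21 have TATAAA beginning 30 and 29 bases before the start, and 1 and 4 CCAAT boxes. Over the 26 windows, TATAAA occurred in 3 (11.5%, against 10.7% of all 35116 windows), CCAAT in 11 (42.3% against 32%) and GGGCGG in 12 (46.2% against 42.6%), on both strands. The AP-1 site TGANTCA occurred in 3 windows (11.5% against 6.57%). The cyclic AMP response element TGACGTCA and the E-box CACGTG occurred in 0 of the 26, against 1.65% and 6.34% of all windows, and these letters being absent from a window says nothing on the factors. A match is a run of letters and not a measured site.

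All 65 rows were called higher after FEBJ than in DMSO, where 26.0% of the 12012 tested rows were, but the choice of the rows fixes this count and nothing is read from it. Every one of the 65 passed the filter on low counts, and all but 2 did so only through their FEBJ libraries. Against a floor of 3 counts over both DMSO libraries (0.432 CPM), the folds were at least 12.3 to at least 353, with a median of at least 19.5. Such floors cover counting error only, and folds against them are of levels with both libraries of a group pooled. With the strand setting unknown and most counts in no feature, the counts of a row, whether 0 or above, may not measure its gene. Silent here means 0 counts in the row, and levels and folds are those of the row. The median level after FEBJ was 8.45 CPM and the range 5.30 to 152.7 CPM with both libraries pooled. Between the 2 FEBJ libraries, the ratio of CPM ran from 0.375 to 2.26 with a median of 0.855, and FEBJ 2 was the higher in 18 of the 65 rows.

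**Figure D1:**
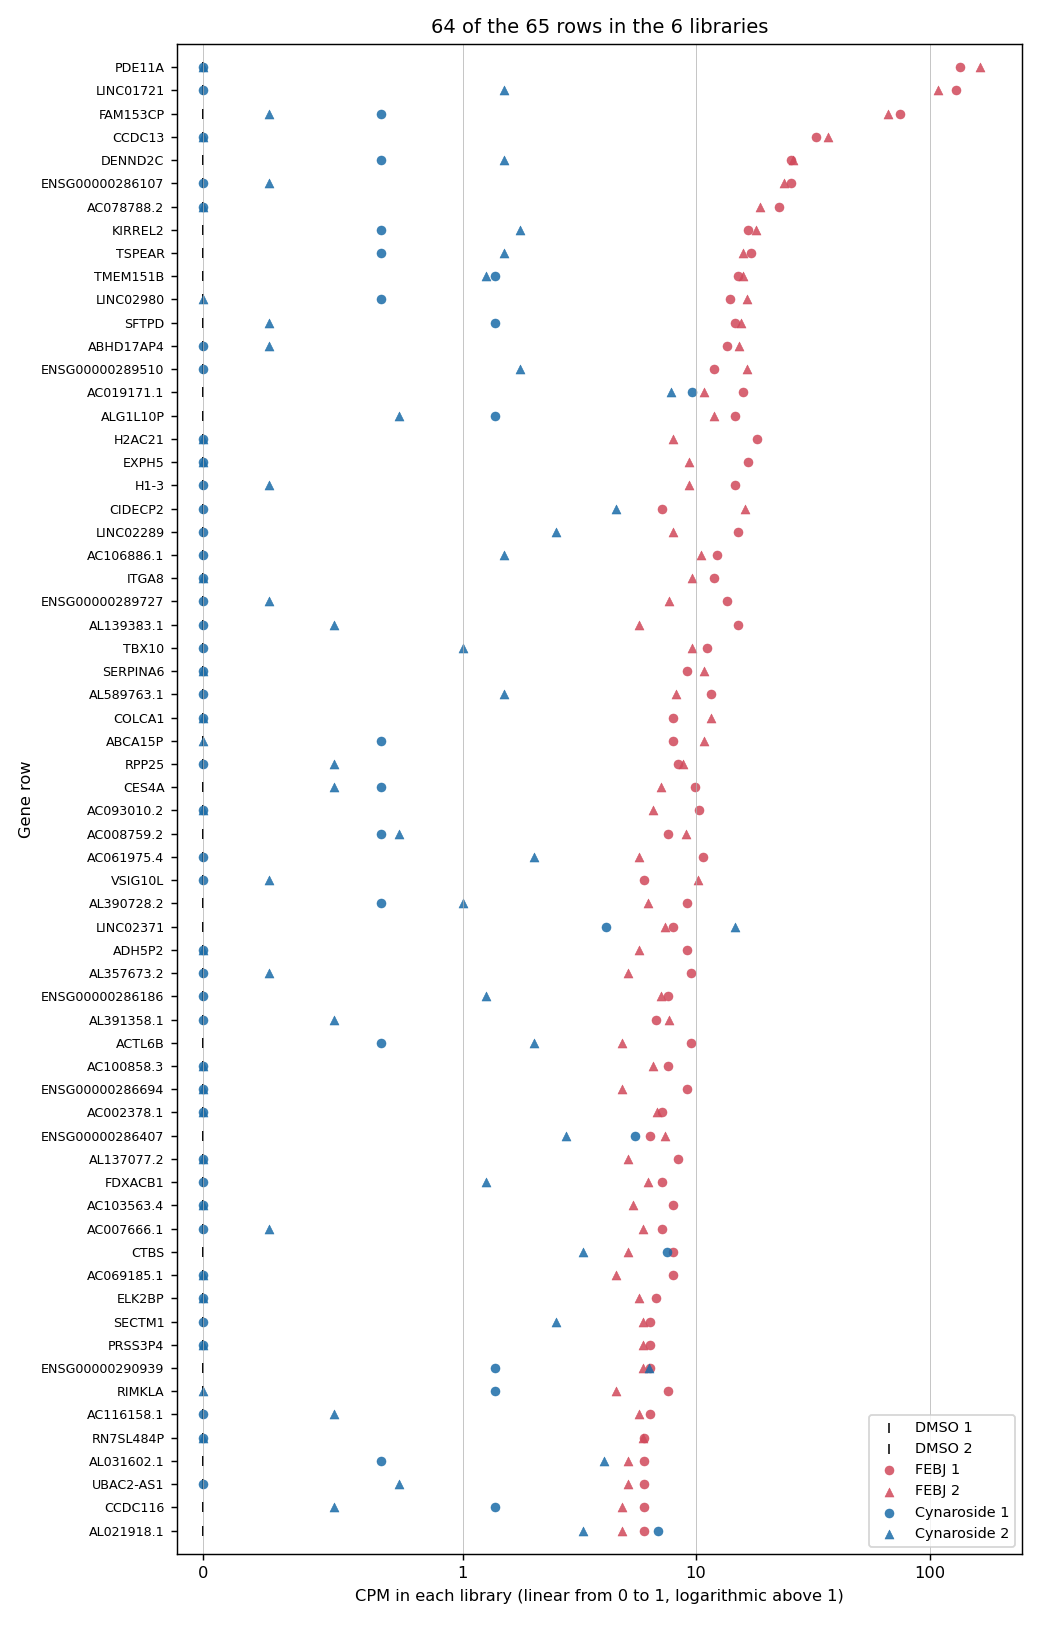
CPM of 64 of the 65 rows (vertical axis, ordered by level after FEBJ) in each of the 6 libraries, on an axis linear from 0 to 1 and logarithmic above 1. Both DMSO libraries (bars) stand at 0 in every row, the FEBJ libraries (red) lie between 4.54 and 165.3 CPM, and the cynaroside libraries (blue) are at 0 in both for 19 rows.

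The protein-coding rows are described first, beginning with those that lie opposite other genes. PDE11A encodes a phosphodiesterase that breaks down both cyclic AMP and cyclic GMP. It held 0 and 0 counts in DMSO, 339 and 583 after FEBJ, then 0 and 0 after cynaroside. Its level after FEBJ, 150.1 ± 21.5 CPM (SD, n = 2), was the highest of the 65 rows. With both libraries pooled it stood at 152.7 CPM, at least 353-fold above DMSO and at least 276-fold above cynaroside. The row opposite its exons, PDE11A-AS1, held 0 and 8 counts in DMSO and 0 and 0 after FEBJ. So after FEBJ the counts of this locus stood in the row of PDE11A alone, though the strand of their reads is not known.

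CCDC13, a coiled-coil protein of centriolar satellites, held 82 and 130 counts after FEBJ and 0 and 0 after cynaroside. Its level was 34.8 ± 3.001 CPM (SD, n = 2), and when pooled it was at least 81.2-fold above DMSO and at least 63.5-fold above cynaroside. CCDC13-AS1, opposite to it, held 4 and 2 counts in DMSO, 0 and 1 after FEBJ, then 11 and 62 after cynaroside. CCDC13-AS2, also opposite but by 49 bp, held 0 and 6 counts in DMSO, 1 and 4 after FEBJ, then 2 and 15 after cynaroside. The row of CCDC13 and the rows opposite thus held most of their counts in different groups. CCDC13 also shares exon sequence on its own strand with AC006059.2 and AC006059.3.

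KIRREL2, an adhesion protein of the nephrin-like family, held 42 and 64 counts after FEBJ and 1 and 7 after cynaroside. NPHS1, which encodes nephrin and lies opposite, held 5 and 12 counts in DMSO, 20 and 32 after FEBJ, then 12 and 14 after cynaroside, so both rows of this pair held more counts after FEBJ than in DMSO. TSPEAR, a secreted protein with repeats of the EAR type, held 43 and 56 counts after FEBJ and 1 and 6 after cynaroside. It lies opposite TSPEAR-AS1, TSPEAR-AS2 and KRTAP10-4, and TSPEAR-AS1 held 2 and 5 counts after FEBJ. TMEM151B, a transmembrane protein, held 38 and 56 counts after FEBJ and 2 and 5 after cynaroside. Opposite to it lie TCTE1, with 13 and 24 counts after FEBJ, and AARS2, with 16 and 5. TMEM151B also shares exon sequence on its own strand with AL353588.1, which held 0 and 2 counts in DMSO and 0 and 10 after FEBJ.

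SFTPD encodes surfactant protein D, a collectin of lung lining fluid, and held 37 and 55 counts after FEBJ and 2 and 1 after cynaroside. The opposite row BMS1P21 held 4 and 4 counts after FEBJ. RPP25, a subunit of ribonuclease P, held 21 and 31 counts after FEBJ and 0 and 2 after cynaroside. SCAMP5, a carrier membrane protein opposite to RPP25, held 11 and 15 counts in DMSO and 4 and 2 after FEBJ and did not pass the test. CES4A, a carboxylesterase, held 25 and 25 counts after FEBJ and 1 and 2 after cynaroside, opposite AC009084.2. VSIG10L, an immunoglobulin domain protein, held 15 and 36 counts after FEBJ and 0 and 1 after cynaroside, opposite VSIG10L-AS1.

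FDXACB1 held 18 and 22 counts after FEBJ and 0 and 5 after cynaroside. CFAP68, opposite to FDXACB1, held 16 and 14 counts in DMSO and 1 and 7 after FEBJ. CTBS, a lysosomal chitobiase, held 20 and 18 counts after FEBJ and 11 and 13 after cynaroside. It stood against far more abundant rows on the other strand. SPATA1 held 281 and 367 counts in DMSO and 271 and 542 after FEBJ, and AL359762.1 held 82 and 203 and then 131 and 212. On their own strands, CTBS shares exon sequence with AL359762.3 and FDXACB1 with AP001781.2, both at 0 throughout. RIMKLA, an enzyme that makes N-acetylaspartylglutamate, held 19 and 16 counts after FEBJ and 2 and 0 after cynaroside, and AL513331.1, a processed pseudogene, lies on the other strand within its span, clear of its exons.

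The protein-coding rows with no gene on the other strand were led by FAM153CP, at 187 and 234 counts after FEBJ and 1 and 1 after cynaroside. Its symbol names a pseudogene although release 29 types it as protein-coding. It reached 70.4 ± 5.68 CPM (SD, n = 2). Its pooled level was 189.1 times that after cynaroside, which rests on 2 counts, with a 95% exact interval of 52.0 to 1566 that covers counting error only. Its relative FAM153A, named after its values were seen, held 6 and 2 counts in DMSO, 527 and 787 after FEBJ, then 6 and 6 after cynaroside, so it was nearly silent in DMSO too. Members of this family are near copies, and how the reads were divided between them is uncertain.

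DENND2C, which activates Rab GTPases of membrane traffic, held 64 and 92 counts after FEBJ and 1 and 6 after cynaroside. Its 2 FEBJ libraries were close, at 25.8 ± 0.444 CPM (SD, n = 2). EXPH5, a Rab27 effector of vesicle transport, held 42 and 33 counts after FEBJ and 0 and 0 after cynaroside. ITGA8, an integrin chain that pairs with ITGB1 and is known from stellate cells and myofibroblasts, held 30 and 34 counts after FEBJ and 0 and 0 after cynaroside. ITGB1, named after its values were seen, went the other way, from 426 and 655 counts in DMSO to 24 and 20 after FEBJ and 34 and 93 after cynaroside.

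SERPINA6 encodes the corticosteroid-binding globulin that the liver secretes, and held 23 and 38 counts after FEBJ and 0 and 0 after cynaroside. SERPINA1, the antitrypsin gene of the same chromosomal cluster, named after its values were seen, held 2 and 1 counts in DMSO, 27 and 37 after FEBJ, then 0 and 0 after cynaroside. Both serpin rows were thus above DMSO after FEBJ and at 0 after cynaroside. TBX10, a T-box transcription factor, held 28 and 34 counts after FEBJ and 0 and 4 after cynaroside. ACTL6B, the neuronal actin-like subunit of the BAF chromatin remodeller, held 24 and 17 counts after FEBJ and 1 and 8 after cynaroside. Its widely expressed counterpart ACTL6A, also named afterwards, was at 46 and 31 counts in DMSO and 50 and 62 after FEBJ.

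SECTM1, a secreted and transmembrane protein, held 16 and 21 counts after FEBJ and 0 and 10 after cynaroside. CCDC116 stood at the edge of the rule with 15 and 17 counts after FEBJ and 2 and 2 after cynaroside. It was the 1 row called neither higher after cynaroside than in DMSO nor higher after FEBJ than after cynaroside.

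H2AC21 and H1-3 encode an H2A core histone and an H1 linker histone, which package DNA. Genes of this kind lie in clusters and most are expressed when DNA is copied. H2AC21 held 46 and 28 counts after FEBJ and 0 and 0 after cynaroside, and overlaps an exon of BOLA1 on the other strand by 27 bp, a row with 2 and 5 counts after FEBJ. H1-3 held 37 and 33 counts after FEBJ and 0 and 1 after cynaroside, with no gene opposite. Both were spread between the FEBJ libraries, at 13.1 ± 7.33 and 12.04 ± 3.79 CPM (SD, n = 2).

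Across a list of 73 histone genes, chosen after the 65 rows were seen, 49 were at 0 in both DMSO libraries. Of these, 29 held at least 1 count after FEBJ, where 4440 of the 41990 such rows in the whole table did. Some of the 29 rest on very few counts, such as H2AC13 with 1 and 0 and H2BC14 with 0 and 1 after FEBJ. Of the 14 histone rows tested, 8 were called higher after FEBJ and 0 lower, where 26.0% of all tested rows were higher. H1-3 and H2AC21, which the rule chose, are among the 8, and without them 6 of 12 were higher, with a median log2 fold change of 0.98 against -0.06 over all rows tested. H3C6 rose from 5 and 26 counts to 251 and 344 and held 18 and 28 after cynaroside. H1-5 rose from 0 and 2 counts to 36 and 27, and H2BC8 from 0 and 2 to 21 and 35. The 24 phosphodiesterase genes, also chosen afterwards, gave a share near the 26.0% of all rows: 2 of the 8 tested, PDE5A and PDE11A, were called higher and 0 lower. Without PDE11A, whose call the rule fixed, it was 1 of 7, with a median log2 fold change of -0.26. PDE5A held 82 and 158 counts in DMSO and 222 and 328 after FEBJ. PDE10A, with 6 and 5 counts in DMSO and 2 and 5 after FEBJ, was not tested.

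**Figure D2:**
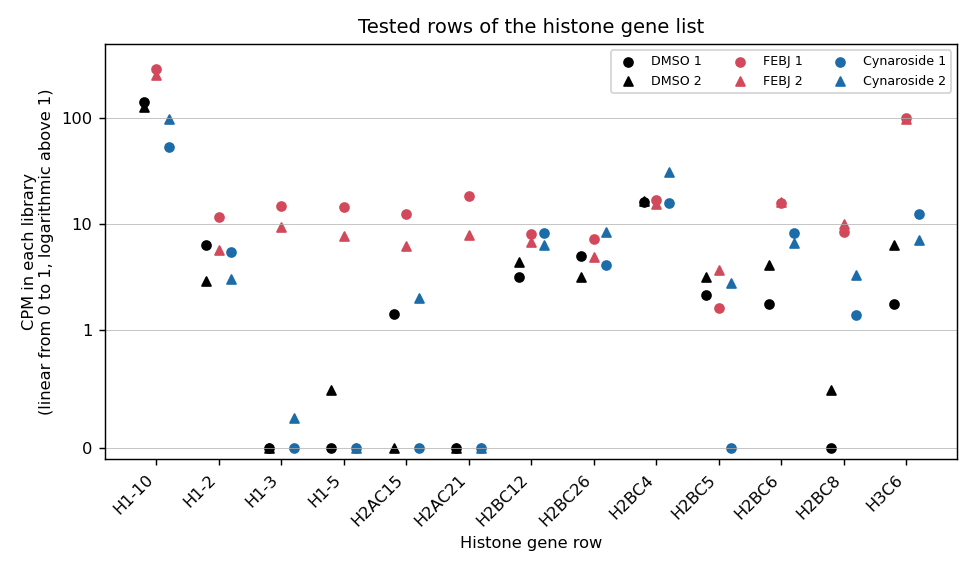
CPM (vertical axis, linear from 0 to 1 and logarithmic above 1) of 13 of the 14 tested histone gene rows in each library, with DMSO in black, FEBJ in red and cynaroside in blue. H1-3 and H2AC21 are at 0 in both DMSO libraries, H1-5, H2AC15 and H2BC8 in 1 of them, and H3C6 shows the FEBJ libraries far above the other groups.

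Among the 19 long non-coding rows, LINC01721 was the most abundant, at 327 and 385 counts after FEBJ and 0 and 6 after cynaroside, with no gene opposite. Its level of 119.6 ± 14.8 CPM (SD, n = 2) was the second highest mean. With both libraries of a group pooled, it was at least 273-fold above DMSO and 107 times the level after cynaroside, with a 95% exact interval of 48.7 to 291.4. AC078788.2, also with no gene opposite, held 57 and 66 counts after FEBJ and 0 and 0 after cynaroside. LINC02980 held 35 and 58 counts after FEBJ and 1 and 0 after cynaroside. The row opposite LINC02980, U91328.2, held 85 and 101 counts in DMSO and 74 and 92 after FEBJ, so the silent row faced one that was counted in every group.

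A further 4 long non-coding rows had no gene opposite in release 29, although that release types AC002378.1 among them as antisense. AC008759.2 held 19 and 32 counts after FEBJ and 1 and 3 after cynaroside, and UBAC2-AS1 held 15 and 18 after FEBJ and 0 and 3 after cynaroside. AC002378.1 with 18 and 24 counts and AL137077.2 with 21 and 18 counts after FEBJ were at 0 and 0 after cynaroside. Overlapping an opposite gene's span but not its exons were AL139383.1, with 38 and 20 counts after FEBJ and 0 and 2 after cynaroside, and AC100858.3, with 19 and 23 and then 0 and 0. AL139383.1 had one of the widest gaps between the FEBJ libraries, at 15.1 and 5.67 CPM.

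Exons of the other long non-coding rows faced exons of other genes. COLCA1, a locus tied to colorectal cancer susceptibility, held 20 and 41 counts after FEBJ and 0 and 0 after cynaroside, while POU2AF3 on the other strand held 0 and 0 after FEBJ. AC093010.2 held 26 and 23 counts after FEBJ and 0 and 0 after cynaroside, opposite ZNF80 with 1 and 5 after FEBJ. AC069185.1 held 20 and 16 counts after FEBJ and 0 and 0 after cynaroside, opposite FDFT1, the squalene synthase gene, which held 33 and 29 counts in DMSO and 2 and 22 after FEBJ and did not pass the test. AC007666.1 held 18 and 21 counts after FEBJ and 0 and 1 after cynaroside, opposite the mitochondrial carrier SLC25A18 with 40 and 43. AC116158.1 held 16 and 20 counts after FEBJ and 0 and 2 after cynaroside, opposite RASGRP1, an activator of Ras, with 16 and 41. These rows show that a silent row could face rows counted in every group as well as rows near 0.

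AL357673.2 held 24 and 18 counts after FEBJ and 0 and 1 after cynaroside, opposite CDCP2 and AL357673.1, both at 0 after FEBJ. LINC02289 held 38 and 28 counts after FEBJ and 0 and 10 after cynaroside, opposite LINC02288 at 0 throughout. AC061975.4 held 27 and 20 counts after FEBJ and 0 and 8 after cynaroside, opposite AC061975.1 and AC061975.2. The last pair, AC019171.1 opposite ARHGEF33 and LINC02371 opposite ITFG2-AS1, held the most counts after cynaroside and are described with that group.

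Of the 13 pseudogene rows, 9 had no gene on the other strand. ABHD17AP4 held 34 and 54 counts after FEBJ and 0 and 1 after cynaroside, whereas its parent ABHD17A, a depalmitoylase, had 30 and 22 counts in DMSO and 11 and 14 after FEBJ. ALG1L10P held 37 and 42 counts after FEBJ and 2 and 3 after cynaroside. Its relative ALG1L2, named after its values were seen like the other parents and relatives, moved alike, from 1 and 1 counts in DMSO to 42 and 36 after FEBJ and 3 and 4 after cynaroside. For ADH5P2, with 23 and 20 counts after FEBJ and 0 and 0 after cynaroside, the parent ADH5 fell from 24 and 45 counts in DMSO to 0 and 8. For ELK2BP, with 17 and 20 after FEBJ and 0 and 0 after cynaroside, the related transcription factor ELK1 fell from 31 and 40 counts in DMSO to 0 and 0. Pseudogene and parent can share reads, and how the authors' counting divided them is uncertain.

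PRSS3P4, a trypsinogen pseudogene, held 16 and 21 counts after FEBJ and AC103563.4 held 20 and 19, both with 0 and 0 after cynaroside. AL390728.2 held 23 and 22 counts after FEBJ and 1 and 4 after cynaroside, and AL391358.1 held 17 and 27 after FEBJ and 0 and 2 after cynaroside. AL021918.1 held 15 and 17 counts after FEBJ and 10 and 13 after cynaroside, and lies within the span of AL021918.3 on the same strand. ABCA15P, which overlaps the span of CRYM on the other strand but not its exons, held 20 and 38 counts after FEBJ and 1 and 0 after cynaroside, and CRYM was at 0 in all libraries.

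Pseudogenes with opposite exons numbered 3. AL589763.1 held 29 and 29 counts after FEBJ and 0 and 6 after cynaroside, and EFCAB2 opposite to it, a calcium-binding protein, held 2 and 6 counts in DMSO and 34 and 67 after FEBJ. CIDECP2 held 18 and 57 counts after FEBJ and 0 and 18 after cynaroside, with both groups resting mainly on their second library, opposite IFT122P3. AC106886.1 held 31 and 37 counts after FEBJ and 0 and 6 after cynaroside, opposite AC106886.3. Of the other types, RN7SL484P, a copy of the signal recognition particle RNA, held 15 and 21 counts after FEBJ and 0 and 0 after cynaroside, opposite DNM1P46 at 0 throughout. It shares exon sequence on its own strand with AC090825.2, which held 7 and 0 counts in DMSO and 52 and 86 after FEBJ. AL031602.1, a gene still to be experimentally checked in the annotation, has no gene opposite and held 15 and 18 counts after FEBJ and 1 and 16 after cynaroside.

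For 7 rows known by identifier only, type and opposite genes were not assigned. ENSG00000286107 was the most abundant, with 64 and 84 counts after FEBJ and 0 and 1 after cynaroside. ENSG00000289510 held 30 and 58 counts after FEBJ and 0 and 7 after cynaroside, ENSG00000289727 held 34 and 27 and then 0 and 1, and ENSG00000286186 held 19 and 25 and then 0 and 5. ENSG00000286694 held 23 and 17 counts after FEBJ and was the only one of the 7 at 0 and 0 after cynaroside. ENSG00000286407, with 16 and 26 counts after FEBJ and 8 and 11 after cynaroside, and ENSG00000290939, with 16 and 21 and then 2 and 25, were counted in every library of both treated groups.

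Taking the opposite strand as a whole, 35 rows lay exon against exon with 28 of the 65 rows, and 25 of them had counts in DMSO where the facing row had none. Of the 15 opposite rows tested, edgeR (quasi-likelihood, Benjamini-Hochberg adjustment) called 3 (20%) higher after FEBJ than in DMSO and 0 lower, against 26.0% higher and 24.8% lower over all tested rows. These were EFCAB2 (log2 fold change 3.80 ± 0.65 SE, adjusted p = 1.69e-05), NPHS1 (1.82 ± 0.75, adjusted p = 0.0438) and SPATA1 (0.49 ± 0.16, adjusted p = 0.0147). In 22 of the 28 rows the counts after FEBJ exceeded those of all opposite rows together. With at least 50 bp of overlap this held for 21 of 27 (77.8%), against 66.6% of the 4862 rows with such an overlap and at least 15 counts in each FEBJ library, a figure touched by the choice of rows.

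The same rule was applied to every ordered pair of groups. From FEBJ to DMSO, 66 rows were at 0 after FEBJ and had at least 15 counts in each DMSO library, about as many as the 65 in the other direction. From DMSO to cynaroside, a single row went from 0 to at least 15 in each library, and from cynaroside to DMSO 85 rows did. Between the treatments, 56 rows were silent after cynaroside and on after FEBJ, and 11 the other way. Library sizes differed between groups, and cynaroside 1 was the smallest library, so these numbers are counts at the depth reached.

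**Figure D3:**
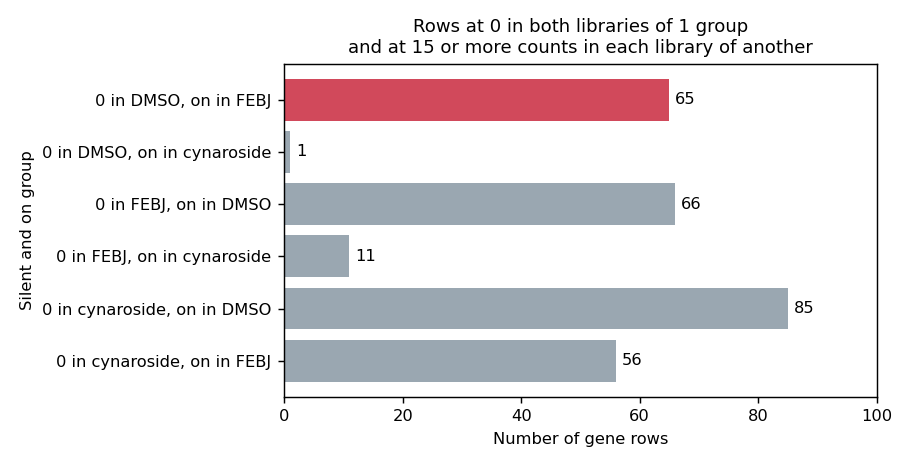
Number of gene rows (horizontal axis) at 0 counts in both libraries of a silent group and at 15 or more counts in each library of an on group, for the 6 ordered pairs of groups. The pair that defines the rows described here is in red with 65 rows, and the reverse direction holds 66.

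The 65 rows differed in kind from the 66 of the reverse direction. Protein-coding genes made up 60 of those 66 (90.9%) and 24 of the 65 (36.9%), and pseudogenes 2 (3.03%) and 13 (20%). Exons of the rows silenced after FEBJ were longer, with a median of 6253 bp against 1906 bp, and 21.2% of them had opposite exons against 46.6%. Levels were alike in the middle, with a median of 8.57 CPM in DMSO for the 66 rows and 8.45 CPM after FEBJ for the 65, while the highest stood at 69.7 and 152.7 CPM. These figures were compared without a test.

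**Figure D4:**
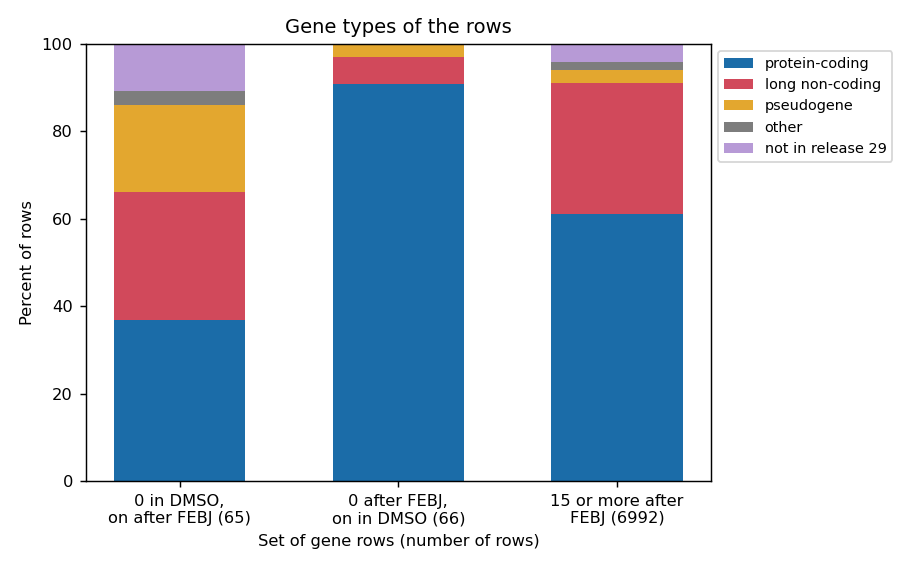
Percent of rows of each gene type (vertical axis, stacked) among the 65 rows silent in DMSO and on after FEBJ, the 66 rows of the reverse direction, and the 6992 rows with 15 or more counts in each FEBJ library. Protein-coding genes fill 36.9, 90.9 and 61.1% of the bars, and pseudogenes 20, 3.03 and 3.08%.

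The rule was also applied to the libraries of one replicate number, and the counts read in those of the other. In DMSO 1 and FEBJ 1 alone, 200 rows met the rule. In DMSO 2 and FEBJ 2, which that choice had not used, 148 of the 200 again reached 15 counts after FEBJ, 89 were again at 0 in DMSO and 65, the rows described here, did both. Their median was 1 count in DMSO 2, with a highest value of 25, and 24 counts in FEBJ 2, and 192 of them (96.0%) were higher in CPM in FEBJ 2 than in DMSO 2, against 51.1% of the 23013 rows with a count in either library. Chosen on the second replicates, 254 rows met the rule, of which 125 reached 15 counts in FEBJ 1, 142 were at 0 in DMSO 1 and 237 (93.3%) were higher in FEBJ 1, against 51.4% of all 21492 rows with a count there. The shares over all rows are not of rows with like counts, and 65 of the rows chosen are those described here. Libraries of a group may be technical repeats, so this describes how the counts recurred between libraries and nothing more is read from it.

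The threshold cut through a dense range. Just inside it lay AL021918.1 and CCDC116 with 15 and 17 counts and AL031602.1 with 15 and 18. Just outside lay NKD2 and WEE2 with 14 and 18 counts and DHH, a hedgehog ligand, with 22 and 14. Among rows at 0 in DMSO, 48 had a smaller FEBJ count of 10 to 14, 29 of 15 to 19 and 10 of 20 to 24. By the symbol filter, SLC12A1 with 41 and 35 counts, ZNF300 with 30 and 39 and RPL39P with 34 and 26 after FEBJ were left out, and their counts after cynaroside were 0 and 2, 0 and 0, and 7 and 2.

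After cynaroside, 19 of the 65 rows were at 0 in both libraries, 18 held 1 to 3 counts in all and 28 held 4 or more. Not one reached 15 counts in each library, and 20 had at least 1 count in each. The 2 libraries differ in depth: 42 rows were at 0 in cynaroside 1, where a count of 0 allows up to 2.06 CPM, and 22 in cynaroside 2, where it allows 0.756 CPM. Summed over the 65 rows the level was 54.2 and 82.7 CPM after cynaroside and 1019 and 933 CPM after FEBJ. In 61 rows both cynaroside libraries were below both FEBJ libraries in CPM, a count for which the rule fixed the FEBJ side.

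The 19 rows at 0 after cynaroside were spread over the gene types, with 6 of 24 protein-coding rows, 7 of 19 long non-coding rows, 4 of 13 pseudogenes, 1 of the 2 other rows and 1 of the 7 unannotated rows. The rows with 4 or more counts comprised 11 protein-coding, 6 long non-coding and 6 pseudogene rows, 1 other row and 4 unannotated rows. In no gene type did the rows fall into 1 class of response to cynaroside.

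By edgeR (quasi-likelihood, Benjamini-Hochberg adjustment over all 12012 rows), 21 of the 65 (32.3%) were called higher after cynaroside than in DMSO and 24.3% of all rows were. The rule fixed the DMSO side at 0, and most of the rows entered the test only through their FEBJ counts, so the number describes the rows and nothing is read from it. Of these 21 rows, 7 had no count in cynaroside 1. With only the 4 DMSO and cynaroside libraries, 2 of the 65 rows passed the filter and both were called. Without DMSO 1, DMSO 2 or cynaroside 2 the number was 11, 8 and 9. Higher after FEBJ than after cynaroside were 53 of the 65 (81.5%), with 21.5% over all rows, the FEBJ side again being fixed by the rule. Without FEBJ 1 or FEBJ 2 this number was 35 and 33. Both calls were made for 10 rows.

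LINC02371 was the 1 row with a higher pooled level after cynaroside than after FEBJ. It held 20 and 26 counts after FEBJ and 6 and 58 after cynaroside, so its cynaroside libraries lay on either side of the FEBJ ones. ITFG2-AS1, opposite to it, held 113 and 204 counts in DMSO, 93 and 107 after FEBJ, then 72 and 221 after cynaroside.

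AC019171.1 held 40 and 38 counts after FEBJ and 14 and 31 after cynaroside. Its pooled level after FEBJ was 1.56 times that after cynaroside, with a 95% exact interval of 1.07 to 2.30 that covers counting error only. ARHGEF33 on the other strand held 0 and 1 counts in DMSO, 2 and 0 after FEBJ, then 3 and 32 after cynaroside. Against the floor of 3 counts over the DMSO group, pooled levels after cynaroside were at least 27.3-fold higher for LINC02371, 19.2-fold for AC019171.1, 11.5-fold for ENSG00000290939, 10.2-fold for CTBS, 9.81-fold for AL021918.1 and 8.11-fold for ENSG00000286407. These rows held the highest levels after cynaroside, and no test is given because the DMSO counts chose them.

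**Figure D5:**
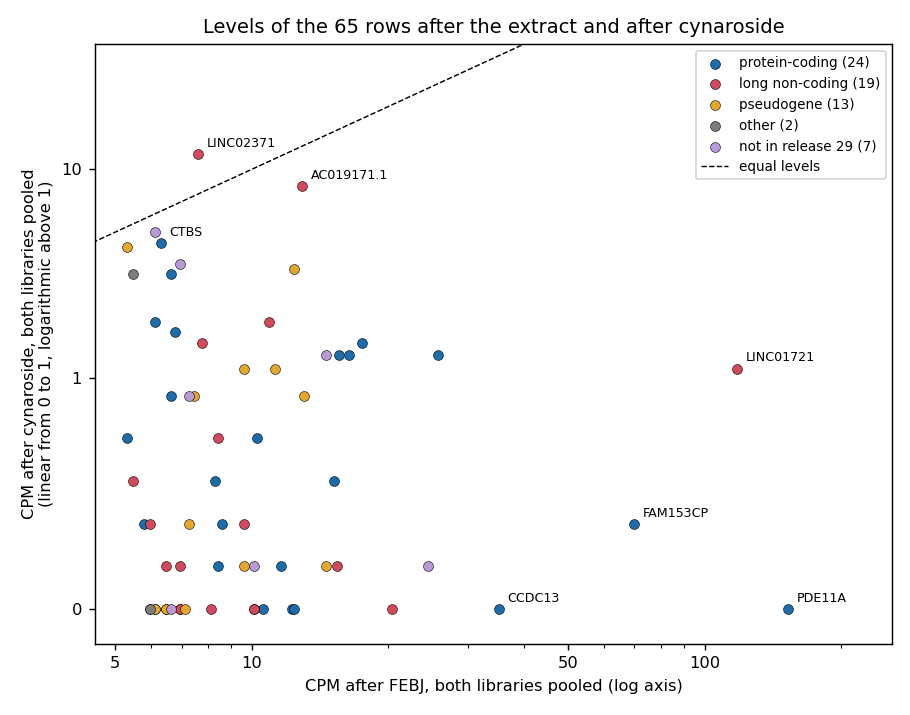
Level of each of the 65 rows after cynaroside (vertical axis, pooled CPM, linear from 0 to 1 and logarithmic above 1) against its level after FEBJ (horizontal log axis, pooled CPM), coloured by gene type. The 3 most abundant rows lie far below the line of equal levels, 19 rows lie on 0, and LINC02371 alone lies above the line.

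The 58 annotated rows lay on many chromosomes, 10 of them on chromosome 1 and 4 each on chromosomes 3, 6, 11 and 22, and no 2 of them lay within 50 kb of each other. Within 50 kb of a row there were 407 other rows. Of the 99 that were tested, 31 (31.3%) were called higher after FEBJ than in DMSO and 12 (12.1%) lower, against 26.0% higher and 24.8% lower over the whole table. Their median log2 fold change was 0.20, against -0.06 over all tested rows. The genes of the interferon, NF-kB, p53, heat shock and NRF2 lists included none of the 65 rows.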

How the data were processed

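RNA-seq of LX-2 cells gave 6 libraries, 2 per group. The authors deposited raw counts per gene for each library, made with CASAVA 1.7, HISAT2, HTSeq 0.12.4 and DESeq2 1.38.0 on hg19, per the submitters' processing notes. The kit, strand setting and annotation release are not given in the sources used here. Each table held 62754 gene rows and 5 summary rows; the latter were left out, and the row for reads in no feature held 87.4 to 88.3% of all counts. Symbols matched 62700 rows. Gene types, exons and strands came from GENCODE release 29 (GRCh38), which held 58261 rows; as the labels name another build, no positions of genes are given, and promoter windows carry the build of RefSeq.

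The rule was applied to the deposited counts. After filterByExpr, 12012 rows were scaled by TMM and fitted with edgeR 4.0.16 (R 4.3.3), with 3 group means over 6 libraries and 3 residual degrees of freedom, and tested by quasi-likelihood with Benjamini-Hochberg adjustment at 0.05. Comparisons share groups: DMSO and FEBJ, which chose the rows, each enter another comparison. Folds against 0 used a floor of 3 counts over the group, and intervals are 95% exact binomial. Opposite exons were those overlapping on the other strand by at least 50 bp.

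The members and the gene lists were chosen with earlier results of these data known. Named were the 12 rows with the highest mean CPM after FEBJ, the 10 highest that code for protein and face no exon, the 6 highest after cynaroside, 3 on each side of the threshold and the 6 facing the most opposite counts, and the others are given by their counts. Replicate numbers are shared between groups but did not pair the libraries. Across rows, deviations of same-numbered libraries from their group means correlated at -0.01225 (DMSO and FEBJ), 0.00148 (DMSO and cynaroside) and -0.00643 (FEBJ and cynaroside). Alternatives were other scalings and filters, DESeq2 1.42.0, a replicate block, the libraries compared alone, each library left out and other thresholds of the rule. Values of 1 of the 65 rows and of a few related genes are not reported here.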

Additional observations from a re-analysis of the deposited data

How the results depend on the processing

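The number of rows meeting the rule followed its thresholds, being 113 with at least 10 counts in each FEBJ library, 36 with at least 20, 20 with at least 30, and 101 with at most 1 count in the 2 DMSO libraries together, against 65. Leaving out each DMSO or FEBJ library in turn gave 89 to 148 rows, since 1 condition fewer then applied. It was 64 with at least 5 CPM in each FEBJ library and 68 with the left-out symbols kept. The number of rows called higher after cynaroside than in DMSO, 21, was 8 to 24 with each library left out and 16 to 19 under the other scalings, filters, DESeq2 (16) and the replicate block (17). With only the 4 libraries compared it was 2, as only 2 of the 65 rows then passed the filter. The number called higher after FEBJ than after cynaroside, 53, was 33 to 51 with each library left out, 47 with the replicate block, 44 with DESeq2 and 47 to 56 under the others. The replicate block changed no count of calls by over 1.5 times, and the replicate numbers did not pair the libraries. With 1 library left in a group, that library is assumed to vary like the other groups.

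Scaling shifted the whole table: with upper-quartile scaling, the median over all tested rows went from -0.06 to -0.19 (log2) for FEBJ against DMSO and from 0.02 to -0.18 for cynaroside against DMSO. Calls for cynaroside against DMSO were 2917 higher and 2537 lower, and with upper-quartile scaling 2260 and 3015. Depth limits what silent means: 0 counts over both DMSO libraries allow up to 0.432 CPM, and cynaroside 1 alone allows 2.06 CPM. These limits cover depth only: COL1A2, LUM and DCN were at 0 in all 6 libraries. Whether the counts of a row, 0 or above, measure its gene was not tested.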
